A study of Arabidopsis thaliana with 4 samples.

Results

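The pericentromeric regions of AtbZIP17 were the merged ChIP-seq binding peaks whose midpoint lay in 1 of 5 windows, which run from 12.5 to 17.5 Mb on chromosome 1, 1.5 to 6.0 Mb on chromosome 2, 11 to 16.5 Mb on chromosome 3, 2.5 to 5.5 Mb on chromosome 4 and 9.5 to 14.5 Mb on chromosome 5. Peaks of the 3 replicates that shared at least 1 bp were joined into 1 region, which gave 8992 regions, of which 311 were pericentromeric and 8681 lay on the chromosome arms. The windows cover 23 Mb, against 96.0 Mb of arms up to the last peak of each chromosome. The rule uses position alone, and the windows are round numbers and are not marked in the deposited lists.

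The 3 ChIP samples, called replicates 1, 2 and 3, came from *35Spro::MYC-bZIP17* seedlings in the Col-0 background, 13 days old, grown at 22 °C and then held for 2 h at 42 °C, with chromatin precipitated by an anti-MYC antibody. The 1 input library came from the same genotype and treatment without antibody, and it has no list of its own. All samples therefore carry the transgene, driven by the constitutive 35S promoter of a plant virus, and all were heated, and neither an unheated nor an untagged sample was analysed here. The labels do not say whether the replicates came from separate plants, so the spread between these 3 samples, which share 1 input, may be technical. Each p-value below rests on these 3 samples alone. It is 0.25 whenever all 3 differ in the same direction, whatever their spread.

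AtbZIP17 is a basic leucine zipper transcription factor that is held in the membrane of the endoplasmic reticulum (ER) and released by proteolysis under stress, so that it can act on genes of the unfolded protein response (UPR), the programme that raises folding and clearance of ER proteins. The pericentromeres of *Arabidopsis* flank the centromeric repeats and are mostly heterochromatin, dense in transposons and DNA methylation and poor in active genes. Genes that lie there are islands between inactive sequence, and many repeats cannot be assigned a unique read position.

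The only sequences at hand for these windows were the primers of the retrotransposon *TA3* (*AT1G37110*) on chromosome 1, to which the study normalized its ChIP-qPCR. They are shown because they mark the control locus, which lies in a window, and they are given from 5′ to 3′.
ChIP-TA3-F: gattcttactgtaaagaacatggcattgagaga
ChIP-TA3-R: tccaaatttcctgaggtgcttgtaacc
None of the 311 regions overlapped *TA3*. The nearest region on the side of lower coordinates, chr1:13707582-13707852 (TAIR10), held a peak of 1 replicate, and so did the nearest on the other side, chr1:14149145-14149431. A list of peaks shows only that *TA3* did not pass the limit for a peak, not that its enrichment was 0.

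The gene content of the windows differed from that of the arms. In the RefSeq annotation the windows held 1837 protein-coding genes, or 79.9 per Mb, against 25595 on the arms, or 267 per Mb. Pseudogenes, a class in which RefSeq also places transposon genes, numbered 3241 in the windows, or 141 per Mb, against 1602 on the arms, or 16.7 per Mb. The windows were thus gene-poor and pseudogene-rich relative to the arms.

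Peaks were sparse in the windows in every replicate. Replicates 1, 2 and 3 had 172, 128 and 111 pericentromeric peaks, which were 3.80%, 2.85% and 2.56% of their lists, against 4351, 4363 and 4219 arm peaks. The density was 7.48, 5.57 and 4.83 peaks per Mb in the windows, against 45.3, 45.4 and 43.9 on the arms. The pericentromeric mean of 5.96 ± 1.37 peaks per Mb stood against an arm mean of 44.9 ± 0.832 (SD, n = 3 replicates each), and the 2 sets of values did not overlap. The mean log2 ratio of the densities, windows over arms, was −2.94 ± 0.30 (SD, n = 3), lower in 3 of 3 replicates (exact sign permutation test, two-sided, p = 0.25, Benjamini-Hochberg adjusted p = 0.25 over 6 tests). With 3 replicates 0.25 is the smallest p this test can give, so none of the 6 comparisons of windows and arms could pass a threshold of 0.05.

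Per gene the gap was smaller. Replicates 1, 2 and 3 had 9.36, 6.97 and 6.04 peaks per 100 protein-coding genes in the windows, against 17, 17 and 16.5 on the arms. The log2 ratios were −0.86, −1.29 and −1.45. This scale was chosen after the density per Mb had been seen. Gene content was lower in the windows together with the peak density, and its part in the density was not tested further.

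**Figure D1:**
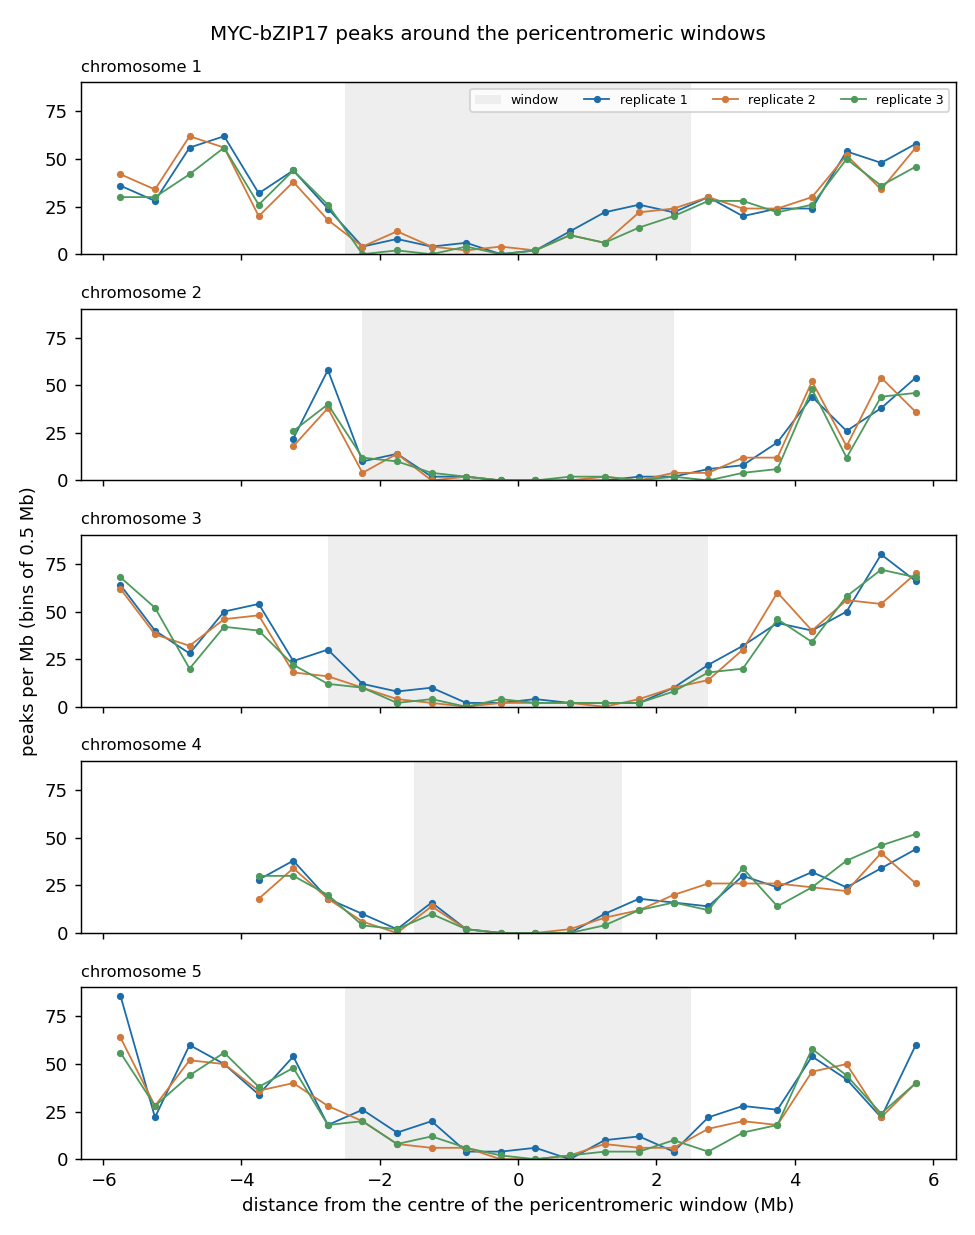
Binding peaks per Mb (y axis) in bins of 0.5 Mb against the distance from the centre of the pericentromeric window in Mb (x axis), in 1 panel per chromosome, with 1 line per replicate and the window shaded. The lines of the 3 replicates run close together, and they are low within the shaded windows, where the means per replicate were 7.48, 5.57 and 4.83 peaks per Mb. Some bins just outside are as low and others are higher. The bin at −1.75 Mb on chromosome 4 held 2, 0 and 2 peaks per Mb. That at 2.75 Mb on chromosome 2 held 6, 4 and 0, and that at −2.75 Mb on chromosome 1 held 24, 18 and 26.

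The density also differed within the windows and between chromosomes. The inner 11.5 Mb of the windows held 64 regions, or 5.57 per Mb, and the outer 11.5 Mb held 247 regions, or 21.5 per Mb. The inner part held 474 protein-coding genes and 1970 pseudogenes, and the outer part 1363 protein-coding genes and 1271 pseudogenes. Between these 2 parts, regions were thus fewer where protein-coding genes were fewer. By chromosome the windows held 20.2, 5.78, 12.9, 7.0 and 18.4 regions per Mb on chromosomes 1 to 5, against 104, 75.1, 90.0, 68.9 and 101 on the arms of the same chromosomes. The window was below the arms on each of the 5 chromosomes, and chromosomes 2 and 4 had the lowest values in both places. The windows of chromosomes 1 to 5 held 83, 95.6, 76, 58.3 and 79.8 protein-coding genes per Mb. The window of chromosome 2 thus had the most such genes per Mb but the fewest regions per Mb. Its genes include those of the insertion described below.

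Long stretches in the windows held no peak of any replicate. The longest was 1629 kb on chromosome 4, chr4:3057061-4686069, and contained 35 protein-coding genes. The longest on chromosome 2 was 1453 kb, chr2:2902435-4355913, with 157 protein-coding genes. Chromosomes 1, 3 and 5 had shorter ones, of 633, 562 and 547 kb. The stretch on chromosome 2 covers the place where a copy of the mitochondrial genome is inserted. RefSeq lists 97 protein-coding genes in the insertion, and the 3 lists held 0 peaks there. The insertion has a near-identical counterpart in the mitochondrial genome, and the authors kept uniquely mapped reads only, so binding there cannot be judged from these lists.

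Most pericentromeric regions were seen in a single replicate. There were 255 with a peak of 1 replicate (82.0%), 19 with peaks of 2 (6.11%) and 37 with peaks of all 3 (11.9%), against 6308 (72.7%), 1069 (12.3%) and 1304 (15%) on the arms. Over all 8992 regions the share with all 3 replicates was 14.9%, and the share with at least 2 was 27%, which 56 pericentromeric regions (18%) reached, against 2373 arm regions (27.3%). The windows were thus below the share of all regions by either criterion as a whole, but not in each part. With all 3 replicates were 9.90%, 19.2%, 11.3%, 28.6% and 8.70% of the regions in the windows of chromosomes 1 to 5, against 14.8%, 15.4%, 16.4%, 15.3% and 14.0% on the arms, so the windows of chromosomes 2 and 4, which held 5 and 6 such regions, were above their arms. The inner part of the windows reached 17.2% (11 of 64 regions) and the outer part 10.5% (26 of 247). The regions with all 3 replicates are called common regions below.

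Replicate 1 held the most of these single-replicate regions. It gave 117 of the 255 single-replicate pericentromeric regions (45.9%), and replicates 2 and 3 gave 75 and 63, against 2155, 2153 and 2000 on the arms, where replicate 1 gave 34.2%. Of the pericentromeric peaks, 22.7%, 32.0% and 34.2% in replicates 1, 2 and 3 lay in common regions, against 34.6%, 33.6% and 35.6% of arm peaks. The differences were −12.0, −1.59 and −1.37 percentage points, a mean of −4.97 ± 6.05 (SD, n = 3), lower in 3 of 3 replicates (exact sign permutation test, two-sided, p = 0.25). Replicate 1 alone was far below its arm value. Without replicate 1 there were 196 pericentromeric regions. The share of peaks in regions with both replicates left was then still lower in the windows, by a mean of −7.43 points (−8.65 and −6.20). The lower share thus did not rest on replicate 1 alone. The direction of the difference also depended on the limit for a peak. With peaks of a fold enrichment of at least 3 alone it was −13.2 points. With peaks of a q-value (the p-value of the peak caller adjusted for the number of tests) under 1e-05 alone it was 13.0 points, higher in the windows, and with a reciprocal overlap of 50% it was 0.158 points.

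By stronger criteria the windows were close to the background. A fold enrichment of at least 3 in all 3 replicates was reached by 17 pericentromeric regions (5.47%), against 556 arm regions (6.4%) and 6.37% of all regions. Fold enrichment is the pileup of a peak, the count of fragments that overlap its summit, over the local background the peak caller derived with the input, with 1 added to each. A q-value under 1e-05 in all 3 was reached by 27 (8.68%), against 770 (8.87%) and 8.86% of all regions.

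Over all peaks, those in the windows were slightly lower and narrower by their medians. The median pileup was 31.5, 31 and 32 fragments in pericentromeric peaks of replicates 1, 2 and 3, against 35, 35 and 34 in arm peaks. The mean log2 ratio was −0.14 ± 0.05 (SD, n = 3; exact sign permutation test, two-sided, p = 0.25), lower in 3 of 3 replicates. The sign depended on the peaks compared. The ratio was −0.22 among peaks of at least 3-fold, but 0.067 among peaks of a q-value under 1e-05 and 0.12 among peaks of common regions. The median width was 362.5, 399.5 and 394 bp in the windows, against 418, 443 and 441 bp on the arms. The mean log2 ratio was −0.17 ± 0.03 (SD, n = 3; exact sign permutation test, two-sided, p = 0.25), lower in 3 of 3 replicates. The width ratio was −0.79 among peaks of at least 3-fold, −0.51 among peaks of a q-value under 1e-05 and −0.41 among peaks of common regions. The gap in width was thus larger among these peaks, in the same direction.

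The local background implied at peaks was also lower. It follows from the pileup and the fold enrichment, so it is not a separate measure from them. It is known only at sites that passed the limit for a peak. The implied background, computed from the lists as (pileup + 1)/fold enrichment − 1, had a median of 13.7, 14.2 and 13.9 fragments at pericentromeric peaks, against 15.5, 15.3 and 14.8 at arm peaks. The mean log2 ratio was −0.12 ± 0.04 (SD, n = 3; exact sign permutation test, two-sided, p = 0.25), lower in 3 of 3 replicates. It was −0.05 among peaks of at least 3-fold, −0.01 among peaks of a q-value under 1e-05 and −0.03 among peaks of common regions, so the gap was smaller among these peaks. The median fold enrichment stood at 2.24, 2.23 and 2.25 in the windows, against 2.20, 2.22 and 2.24 on the arms. The mean log2 ratio of the fold enrichment was 0.01 ± 0.01 (SD, n = 3; exact sign permutation test, two-sided, p = 0.25), which is near 0. It was −0.15 among peaks of at least 3-fold, but 0.12 among peaks of a q-value under 1e-05 and 0.12 among peaks of common regions, so its sign depended on the peaks compared.

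A tail of very low background took a larger share of the peaks in the windows. The implied background was under 10 fragments at 18, 10 and 10 pericentromeric peaks of replicates 1, 2 and 3 (10.5%, 7.81% and 9.01%), against 15, 9 and 7 arm peaks (0.345%, 0.206% and 0.166%). The shares of the windows lay above those of the arms in each replicate, and the limit of 10 fragments was chosen with these values known. The lowest value, 5.61 fragments, was shared by 3 peaks of replicate 3, in the regions chr5:10330400-10330674, chr5:11234477-11234757 and chr2:5201693-5202181. Where the background is low, few fragments make a peak. At chr2:5201693-5202181, the strongest region with peaks of 2 replicates, pileups of 37 and 30 in replicates 2 and 3 gave fold enrichments of 5.60 and 4.69.

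**Figure D2:**
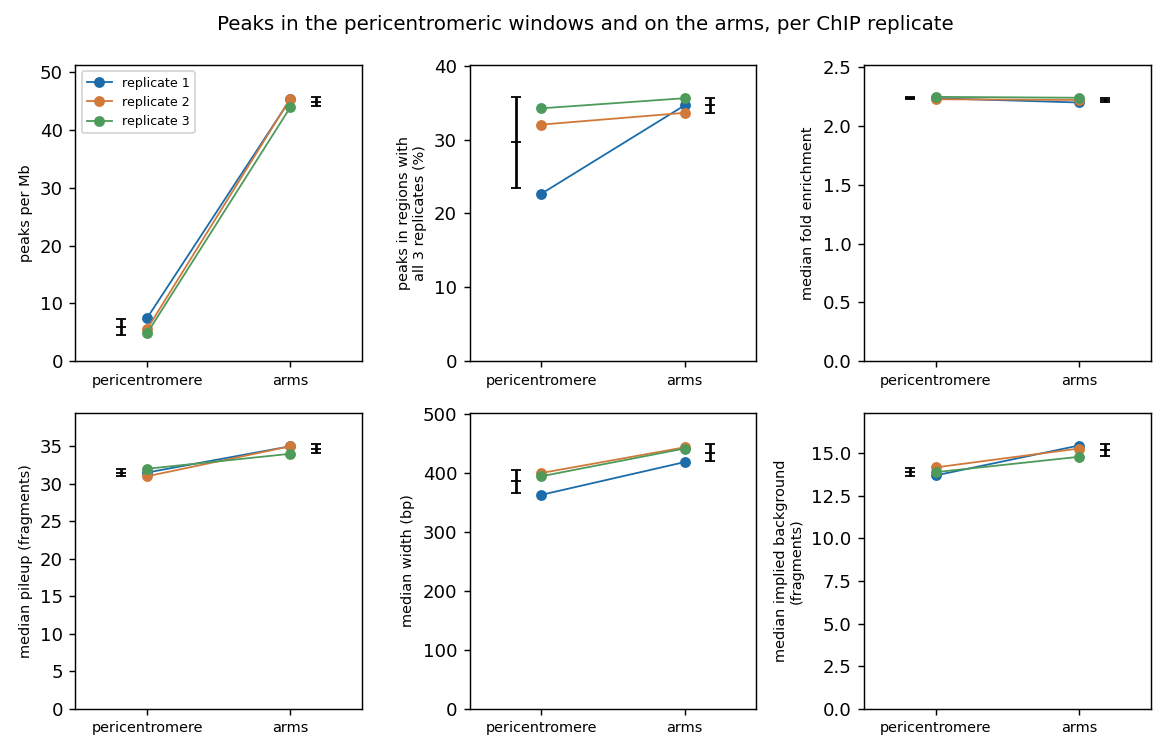
Peaks per Mb, share of peaks in common regions (%), median fold enrichment, median pileup (fragments), median width (bp) and median implied background (fragments) on the y axes, for the pericentromere and the arms, with 1 point and line per replicate and bars for the mean ± SD (n = 3). The density differs far more between the places than between the replicates, while the median fold enrichment lies between 2.20 and 2.25 everywhere.

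The high end of the background held 2 regions that stood apart. At chr3:14196572-14197105, which overlaps *AT3G41762* next to the ribosomal RNA gene *AT3G41768*, the pileup was 1162, 1084 and 1100 fragments and the implied background 436, 423 and 410 fragments, against a median of 15.1 over all peaks of the lists. Its fold enrichment was 2.66, 2.56 and 2.68, a mean of 2.63 ± 0.0640 (SD, n = 3), and the 3 summits lay within 2 bp. Ribosomal RNA genes are present in many copies. At chr4:3056435-3057060, between the pseudogene *AT4G06474* and the RNA gene *AT4G05175*, the implied background was 44.3, 40.4 and 38.9 fragments. The next 8 regions by background reached at most 22.2 fragments, so these 2 were alone at this level. Without regions of over 10 times the median background, 310 pericentromeric regions and 36 common ones were left.

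**Figure D3:**
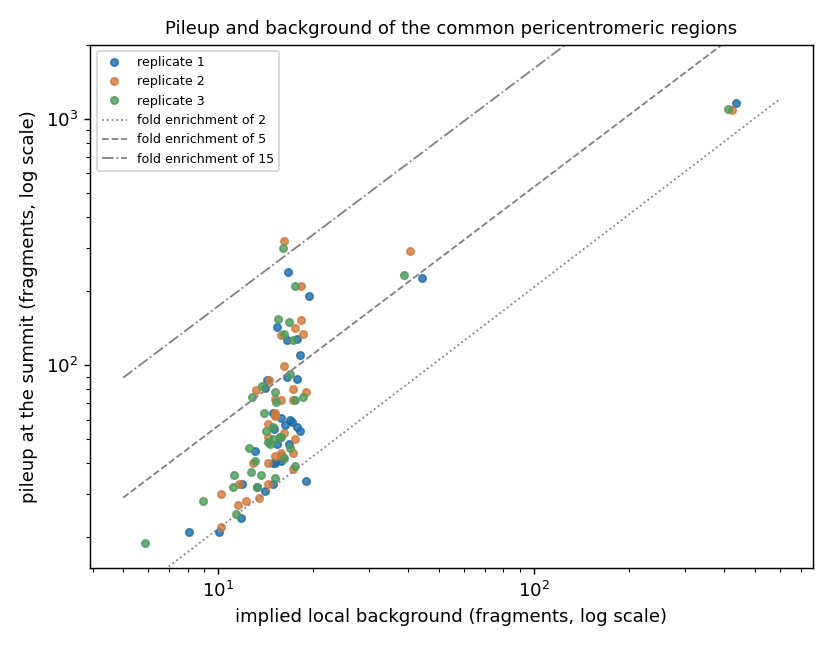
Pileup (fragments, y axis) against implied background (fragments, x axis), both on log scales, for the strongest peak of each replicate (colours) in the 37 common pericentromeric regions, with grey lines at fold enrichments of 2, 5 and 15. Most points stand in 1 column near a background of 15 fragments, and the region beside the ribosomal RNA gene lies far to the right of all others at backgrounds of 410 to 436 fragments.

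The 37 common pericentromeric regions had fold enrichments in the range of those on the arms and were narrower. Their mean fold enrichment had a median of 3.32, between 2.04 and 16.6, against a median of 3.04, between 1.85 and 43.1, for the 1304 common arm regions. It was at least 5 in 10 of the 37 (27.0%), against 288 on the arms (22.1%), and at least 10 in 2 (5.41%), against 89 (6.83%). The median region width was 1042 bp, against 1440.5 bp. The summits of the 3 replicates lay within 200 bp in 29 of the 37 (78.4%), against 939 on the arms (72.0%). Across the 37 regions Spearman's rho of the fold enrichments was 0.838, 0.885 and 0.882 for the 3 pairs of replicates, against 0.870, 0.872 and 0.889 across the arm regions, where the points share the input and are regions, not replicates. The order of the regions was thus similar in the 3 replicates. These values describe regions chosen for having all 3 replicates, and no test was made on them.

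**Figure D4:**
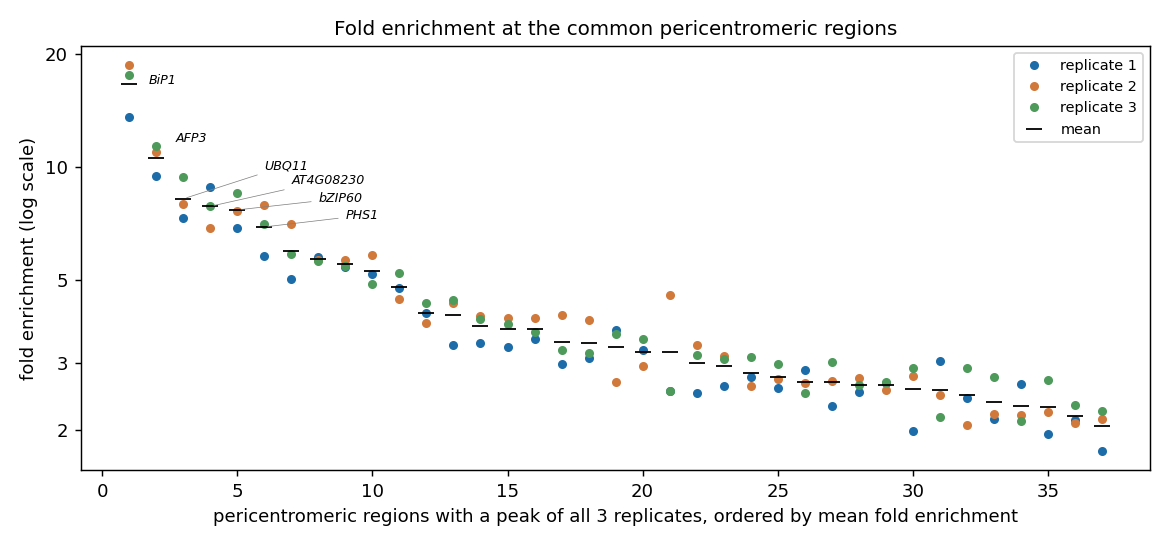
Fold enrichment on a log scale (y axis) of the 37 common pericentromeric regions, ordered by their mean (x axis), with 1 point per replicate and a bar at the mean of 3. The region of *BiP1* stands first at 13.6, 18.7 and 17.5, and the values fall to a mean of 2.04 at the last region.

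Among the genes at common regions were *BiP1* and *bZIP60* of the UPR. Of 31 UPR genes listed for this work, *BiP1* and *bZIP60* lie in the windows and the other 29 on the arms. A common region lay over or within 2 kb of 2 of the 2 in the windows, against 17 of the 29 on the arms. The same held for 50 of the 1837 protein-coding genes of the windows (2.72%), against 2688 of those on the arms (10.5%) and 9.98% of all. With 2 genes the list says little about the windows as such. *BiP1* (*AT5G28540*), which encodes an Hsp70 chaperone of the ER lumen, carried the strongest pericentromeric region, chr5:10541852-10545141, 3290 bp wide. The fold enrichment was 13.6, 18.7 and 17.5 in replicates 1, 2 and 3, a mean of 16.6 ± 2.65 (SD, n = 3), with pileups of 239, 319 and 299 fragments. Replicate 1 was the lowest in both, and the region ranked 37 among the 1341 common regions of the genome. *BiP1* has a near-identical copy, *BiP2*, on the arm of the same chromosome, and only uniquely mapped reads were kept, so the value at *BiP1* is uncertain. At lower coordinates than the strongest region lay 2 weak regions of 1 replicate each, with fold enrichments of 2.24 and 2.26. The latter also overlaps *BiP1*.

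*bZIP60* (*AT1G42990*), the UPR transcription factor activated by splicing of its mRNA, lay in the region chr1:16136558-16139287. The fold enrichment was 6.90, 7.65 and 8.51, a mean of 7.69 ± 0.809 (SD, n = 3), with pileups of 128, 141 and 150 fragments and summits within 48 bp. It ranked 158 among the 1341. Another ER gene, outside the list and named through the target gene rule, was *OS9* (*AT5G35080*), a lectin of ER-associated degradation, at chr5:13356313-13357705 with 3.49, 3.97 and 3.63, a mean of 3.70 ± 0.25 (SD, n = 3). Each of these genes had a peak of at least 3.49-fold in every replicate.

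The second strongest pericentromeric region, chr3:11382382-11387504, covered *AFP3* (*AT3G29575*), a member of the family of proteins that bind ABI5 and dampen abscisic acid signalling. It was 5123 bp wide, the widest of the 37, and its fold enrichment was 9.44, 11 and 11.4, a mean of 10.6 ± 1.02 (SD, n = 3). Of the 15 genes of abscisic acid and water stress listed for this work, *ABF2* (*AT1G45249*), a bZIP factor that binds abscisic acid response elements, is the 1 that lies in the windows. Of the 14 on the arms, 7 had a common region over them or within 2 kb, against 9.98% of all protein-coding genes. *ABF2* had a common region within 2 kb but none over it. That region, chr1:17168494-17170052, overlaps the neighbour *AT1G45230*, and its fold enrichment was 3.0, 4.04 and 3.25, a mean of 3.43 ± 0.542 (SD, n = 3). Over *ABF2* itself lay 2 regions of 1 replicate each, at 2.23 and 2.12.

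The other strong regions held genes of varied roles. The polyubiquitin gene *UBQ11* (*AT4G05050*) lay in chr4:2588221-2591241 with 7.31, 7.97 and 9.40, a mean of 8.23 ± 1.07. Polyubiquitin genes consist of repeats that also occur in their relatives, so this value is uncertain as well. *AT4G08230* lay in chr4:5188708-5191353 with 8.83, 6.88 and 7.86, a mean of 7.86 ± 0.973. *PHS1* (*AT3G29320*), a plastid starch phosphorylase, lay in chr3:11250654-11254366 with 5.8, 7.94 and 7.03, a mean of 6.93 ± 1.07 (SD, n = 3 for each). Neighbours in this order, from *UBQ11* to *PHS1*, differed by less than the spread of their replicates.

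Among the next regions, chr4:2672612-2674239 overlaps *PSBQ-2* (*AT4G05180*), a subunit of photosystem II, and is listed by the study for *ATK5* (*AT4G05190*), a kinesin. It had 5.43, 5.64 and 5.44, a mean of 5.5 ± 0.117. The region of *AT5G35970*, chr5:14121748-14124816, had 5.19, 5.83 and 4.88, a mean of 5.30 ± 0.482. The region between genes on chromosome 4 with the high background, described above, had 5.03, 7.03 and 5.87, a mean of 5.98 ± 1.0 (SD, n = 3 for each). It was the strongest of the 37 that overlapped no annotated gene.

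Compact strong regions were found on chromosome 5 beside the pseudogene *AT5G29550*. The region chr5:11185535-11185913 was 379 bp wide, the narrowest of the 37, and had a fold enrichment of 5.75, 5.67 and 5.60, a mean of 5.67 ± 0.0740 (SD, n = 3). A second one, chr5:11187166-11187601, was 436 bp wide and had 4.75, 4.45 and 5.21, a mean of 4.80 ± 0.382 (SD, n = 3). In each of them the 3 summits lay within 5 bp. Together with the 626 bp region on chromosome 4 they made 3 of the 13 common pericentromeric regions with a mean of at least 4 (23.1%) that were under 700 bp wide, against 2 of 414 on the arms (0.483%). These limits were chosen after the values were seen. In the windows and on the arms alike, stronger common regions were mostly wider, with Spearman's rho between mean fold enrichment and width of 0.637 across the 37 regions, against 0.721 across the 1304.

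The common regions and the other pericentromeric regions were also set against the gene annotation, as a description with no test. Of the 37, 26 overlapped a protein-coding gene (70.3%), 2 overlapped another gene alone and 9 lay between genes (24.3%). Of the 274 regions of 1 or 2 replicates, 121 overlapped a protein-coding gene (44.2%) and 111 lay between genes (40.5%). On the arms the shares over a protein-coding gene were 1041 of 1304 (79.8%) and 5149 of 7377 (69.8%). Over all regions 47.3% of the pericentromeric ones overlapped a protein-coding gene, against 71.3% on the arms. The common regions were wider than the others, and the part of width in these shares was not tested. The windows held 79.9 protein-coding genes per Mb, against 267 on the arms. The share of sequence that such genes cover was not measured. The shares of regions thus cannot be called high or low for the gene content of either place.

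The study's table of target genes, those with a peak in the 2 kb upstream in each replicate, was used for 842 genes. Peaks of all 3 replicates in a single region gave 15 pericentromeric target genes, against 787 on the arms, and 15 of the 37 common regions had such a gene. The share of common arm regions with such a gene was not taken, so 15 of 37 cannot be called high or low. By fold enrichment *bZIP60*, *PHS1*, *AT5G29550*, *ATK5* and *AT5G35970* led, with the values above. The next were the pseudogene *AT2G05800* at 4.09 ± 0.259, the protease gene *DEG14* at 3.70 ± 0.342, *OS9*, and the F-box gene *FBS3* at 3.41 ± 0.439 (mean ± SD, n = 3). The other 6 had lower means, between 2.30 and 3.01. They were *AT1G42480*, *AT3G42580*, *AT3G32990*, *CH1* (chlorophyllide a oxygenase), *AT2G05567* and *ADT4* (arogenate dehydratase, of phenylalanine synthesis). RefSeq classes *AT5G29550*, *AT2G05800*, *AT3G42580* and *AT2G05567* as pseudogenes and *AT3G32990* as a transcribed pseudogene, so 10 of the 15 were protein-coding. A listed gene was not always the gene under its region. The region of *AT2G05800* overlaps the protein-coding gene *AT2G05790*, and that of *AT3G42580* overlaps the protein-coding gene *AT3G42570*. That of *DEG14* overlaps *HTA7* and *RECQSIM*. *BiP1*, *AFP3*, *UBQ11* and *AT4G08230* had no line in the part of the table used here.

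At the borders of the windows the values of the regions on either side overlapped. Within 0.5 Mb of the 10 borders lay 137 regions just inside, 17 of them common, and 165 just outside, 15 of them common. Taken over all borders these counts were close, but single borders differed in both directions. At the left border 4 regions lay just inside and 22 just outside on chromosome 1, but 11 and 2 on chromosome 4. The strips just inside belong to the outer part of the windows, with 21.5 regions per Mb, against 5.57 in the inner part. The 165 regions in the 10 strips just outside were fewer per Mb than the 90.4 of all arms. How far the low density of the windows extends was not measured. The region nearest to each border was in no case a common one. The mean fold enrichment of these nearest regions was 1.95 to 3.45 just inside and 1.93 to 2.51 just outside, their implied background 6.54 to 16.2 and 8.32 to 17.4 fragments, and their pileup 25 to 36 and 22 to 38 fragments.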

How the data were processed

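ChIP-seq peak lists of 3 anti-MYC samples were used, and 1 input entered through the peak calling alone. The authors trimmed reads with Skewer, dropped those under 50 bp, mapped the rest uniquely with Bowtie to TAIR10 (the build in the submitters' processing notes), removed duplicates and called peaks with MACS for each ChIP sample on its own, with the input as control and 0.001 as the *P* limit. The deposited pileup is a signal, the fragments over the summit. The deposited fold enrichment is a ratio to the local background, and the deposited lists give −log10 p-values and q-values and positions in bp. Tool versions are not given in the sources used here. The lists state no read totals, so depth is unknown and counting intervals were not made.

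Peaks of the lists, 13344 in all, were merged at an overlap of 1 bp. The strongest peak of each replicate represented a region. Windows and arms were compared per replicate by exact sign permutation tests, with Benjamini-Hochberg adjustment over 6 tests. The merging and tests were tested on simulated data. The members, windows and gene lists were chosen with earlier results of these data known. The regions and genes named were the 10 common regions of highest fold enrichment and the 10 of highest background, the target genes, listed genes in the windows, *TA3* and the regions at the borders, and any others were chosen after their values were seen. Gene names, classes and overlaps came from RefSeq (TAIR10.1), whose coordinates are not printed. They were checked on 4038 pairs of target gene and peak, of which 4030 (99.8%) lay within 2 kb. From the table of target genes, 1389 lines were used and 1240 were not used here. Primers came from the study's primer table. No genome sequence was used, so motifs were not searched. The software was matplotlib 3.10.9, NumPy 2.4.6, pandas 2.3.3 and SciPy 1.17.1 under Python 3.11.15.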

Additional observations from a re-analysis of the deposited data

How the results depend on the processing

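Of 97 alternative values of the 6 comparisons and 3 counts, 81 kept their direction or stayed within 1.5 times of the count, 5 turned and 11 moved further, and the cause was not tested. Of the 81, 9 leave out the interval taken for the mitochondrial insertion of chromosome 2, which holds no peak, so they could not differ. With a q-value under 1e-05 alone, the difference in the share of peaks in common regions was 13.0 points, the pileup ratio was 0.067 (log2) and 41 pericentromeric regions were left. With a fold enrichment of at least 3 alone, the fold enrichment ratio was −0.15 (log2), and 37 regions, 17 common regions and 9 target genes were left. Narrowing each window by 0.5 Mb at both borders gave 174 regions, 20 common regions and 9 target genes, and widening it gave 476 regions and 23 target genes. A reciprocal overlap of 50% gave a share difference of 0.158 points and 23 common regions. Among peaks of common regions alone the pileup ratio was 0.12 (log2). Leaving out 1 replicate gave 196 to 251 regions, the lowest without replicate 1, 40 to 46 common regions (of the 2 replicates left), 15 to 16 target genes, and log2 density ratios of −3.11 to −2.81. The share difference was then −8.83 to −7.43 points, and the log2 ratios were −0.16 to −0.12 for pileup, −0.18 to −0.16 for width, −0.14 to −0.10 for background and 0.0044 to 0.014 for fold enrichment. Density per gene, chosen after seeing the data, kept the direction of the density per Mb. Arm lengths from a reference were not tried, as no chromosome lengths of the build were used. No paired analysis was possible because all 3 replicates belong to a single condition, so that no samples of different groups share a number. Windows and arms were compared within each replicate throughout.

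Depth is unknown, and the lists hold only peaks past the limit of the caller, so a region without a peak can lie just under it. Only uniquely mapped reads were kept, and the mappable length of the windows was not measured here. The 3 replicates share 1 input, and 0.25 was the smallest p of each test.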
